A study of Caenorhabditis elegans with 9 samples.

Results

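The soma-germline innexins are the 5 gap junction genes inx-8, inx-9, inx-14, inx-21 and inx-22 of Caenorhabditis elegans, chosen by name because their proteins join the gonadal sheath to the germline. They were 5 of 46778 genes in the deposited tables, and all 5 passed the filter on low counts that left 10162 genes. RNA was measured in 9 libraries from females labelled fog2; car1:GFP, pgl1:RFP, sampled on day 3, with L4 and oocyte arrest both given as the stage. The fog-2 background leaves XX animals without sperm of their own, and CAR-1 and PGL-1 are proteins of P-bodies and germ granules. The 3 groups, of 3 libraries each, were P-bodies sorted from oocytes (the labels call the sorting FAPS), oocytes taken by dissection, and extracts of whole animals, which hold soma and germline together. All 3 groups share the genotype, sex and day. No label says that replicates came from separate cultures, so the p-values speak only to the scatter among these libraries, part of which may be technical.

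Innexins are the gap junction proteins of invertebrates. In the worm gonad, hemichannels of INX-8 and INX-9 in the somatic sheath cells dock with hemichannels of the germline, in which INX-14 is paired with INX-21 or INX-22. Channels with INX-21 are known for supporting germ cell proliferation, and channels with INX-22 for holding oocytes in meiotic arrest when no sperm is near. The channels also carry small molecules from soma to germline, among them malonyl-CoA.

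Libraries held 27946955 to 78685226 counts. Genes of ribosomal RNA took 29.8% to 38.04% of the counts of P-body libraries, against 86.8% to 88.8% for oocytes and 91.4% to 91.7% for whole animals. Each level below is therefore in CPM, counts scaled to a fixed library size corrected by TMM factors, which set the typical gene to no change, and changes of the 5 genes and of genes named beside them between P-bodies and oocytes also have a value with plain library totals. That exchange moved the median log2 fold change of all tested genes from -0.06 to 2.44 for P-bodies against oocytes, from 0.00 to 0.68 for oocytes against whole animals and from -0.18 to 3.00 for P-bodies against whole animals. The 14 oocyte marker genes fixed for the check of the labels were counted in every group, at a summed level of 4406 to 4995 CPM in oocytes, 4328 to 4578 in P-bodies and 3623 to 4131 in whole animals.

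The genes stand in 3 places of the WBcel235 genome. The sheath genes inx-8 (WBGene00002130, IV 11673816 to 11675635) and inx-9 (WBGene00002131, IV 11676354 to 11678497) lie in tandem on the plus strand, 718 bases apart, each with 4 exons. The germline genes inx-22 (WBGene00002144, I 3608395 to 3612301) and inx-21 (WBGene00002143, I 3611909 to 3618317) also lie in tandem on the plus strand. In the deposited coordinates they overlap by 393 bases, and in the Ensembl annotation they are 97 bases apart, with no base exonic in both. The shared germline subunit gene inx-14 (WBGene00002136, I 7350312 to 7352235) lies elsewhere on the same chromosome, on the minus strand. Its last exon overlaps the end of kbrl-1, on the opposite strand, over 78 exonic bases in the annotation. The end of inx-9 overlaps ZK792.4 on the opposite strand over 62 exonic bases.

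**Figure D1:**
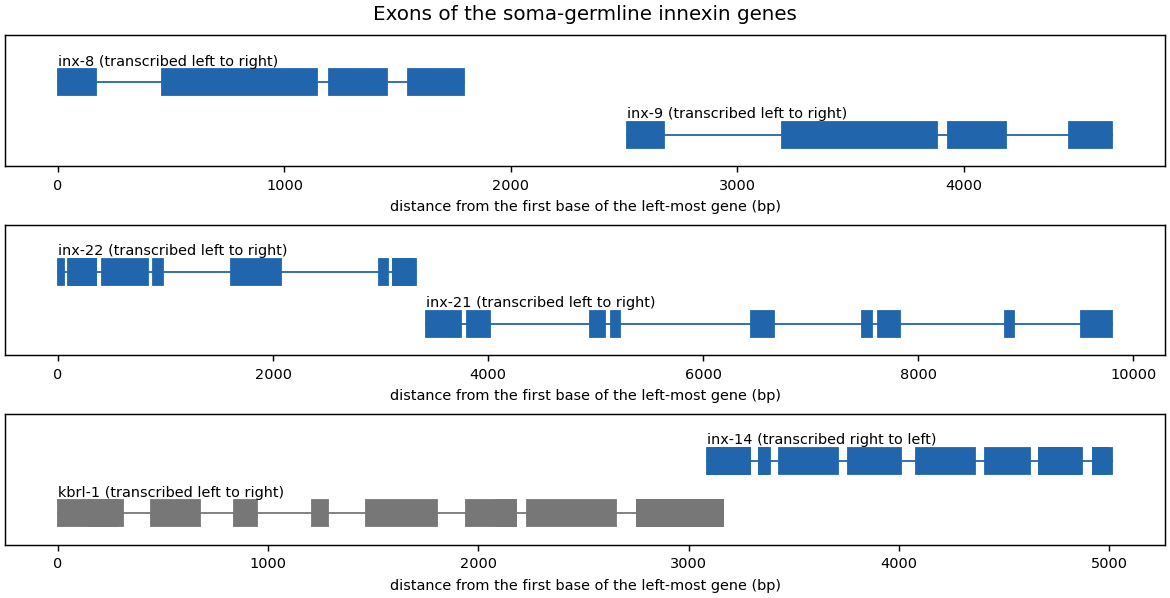
Exons of the annotation (boxes, all transcripts of a gene merged) and introns (lines), with distance in bases from the first base of the left-most gene on each x axis. The tandem pairs inx-8 with inx-9 (718 bases apart) and inx-22 with inx-21 (97 bases apart) share a direction, and inx-14 ends within kbrl-1, drawn in gray.

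The strand setting of the counting is not given in the sources used here, and inx-8 and inx-9 are close relatives, so the values of inx-9, inx-14, inx-21 and inx-22 are uncertain at these overlaps and reads can be split between inx-8 and inx-9. The neighbour kbrl-1 had 12130 to 17658 counts in P-bodies, where oocytes had 354 to 1003 and whole animals 394 to 530. Scaled by TMM these were 45.2 to 59.0, 17.6 to 22.9 and 18.3 to 21.9 CPM. ZK792.4 had 9 to 44 counts in P-bodies, none in the oocyte libraries and at most 2 in whole animals. The part of these neighbours in the values of inx-14 and inx-9 was not tested.

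The comparison of P-bodies with oocytes asked which messages the sorted granules held relative to the dissected oocytes. In those oocyte libraries the markers of gonadal sheath and spermatheca summed to 244 to 296 CPM, against 267 to 294 in whole animals. The part of somatic RNA in the oocyte values was not tested. The sheath messages inx-8 and inx-9 were far lower in P-bodies than in dissected oocytes, and this held with every scaling tried. The germline message inx-21 was higher in P-bodies, also with every scaling. The other germline messages, inx-14 and inx-22, were slightly lower with TMM factors and higher with library totals.

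The sheath message inx-8 had 0.2645, 0.267 and 0.279 CPM in P-body libraries 1 to 3, from 71, 80 and 74 counts. In oocytes it had 11.8, 8.46 and 15.02 CPM, from 274, 170 and 761 counts. Every oocyte library lay above every P-body library, and the lowest oocyte value had more than 100 counts behind it. The log2 fold change was -5.45 ± 0.22 (SE, adjusted p = 1.03e-08), and -2.93 ± 0.27 with library totals (adjusted p = 4.26e-08). Of all tested genes 1.6% had a lower value.

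Its tandem neighbour inx-9, the other innexin of the sheath, had 0.0596, 0.174 and 0.0982 CPM in P-bodies, from 16, 52 and 26 counts. In oocytes it had 1.60, 2.04 and 4.16 CPM, from 37, 41 and 211 counts. The groups did not overlap, and inx-9 was the scarcest of the 5 messages in each group. Its log2 fold change was -4.56 ± 0.45 (adjusted p = 5.86e-06), or -2.06 ± 0.52 with library totals (adjusted p = 0.00193). With the counts of inx-8 and inx-9 added into 1 feature the log2 fold change was -5.24 (adjusted p = 1.44e-08).

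The shared germline subunit message inx-14 had 7.73, 7.10 and 7.16 CPM in P-bodies and 13.2, 10.95 and 14.6 in oocytes. The P-body libraries lay close together and below all 3 oocyte libraries. The log2 fold change was -0.82 ± 0.14 (adjusted p = 0.000298). With library totals it was 1.69 ± 0.17 (adjusted p = 5.94e-08), below the median of all genes on that scale.

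The germline partner message inx-21 had 15.997, 18.8 and 19.1 CPM in P-bodies and 9.03, 8.21 and 8.07 in oocytes. It was the only one of the 5 for which every P-body library lay above every oocyte library on the TMM scale. It rose by 1.09 ± 0.12 (adjusted p = 6.20e-06), or 3.61 ± 0.14 with library totals (adjusted p = 1.90e-12), above the median of all genes on both scales. On the TMM scale 82.8% of all tested genes had a lower value, and 26.7% were called higher. The counts behind inx-21 were 4294 to 5642 in P-bodies and 165 to 409 in oocytes.

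The alternative partner message inx-22 had 10.9, 12.9 and 11.2 CPM in P-bodies and 13.7, 15.4 and 17.1 in oocytes. The groups did not overlap, but the highest P-body library came close to the lowest oocyte library. The log2 fold change was -0.41 ± 0.14 (adjusted p = 0.0288), and 2.096 ± 0.18 with library totals (adjusted p = 9.09e-09). On the TMM scale inx-22 no longer passed when P-body library 1 was left out (-0.35, adjusted p = 0.104), and the same held for P-body library 3 (-0.37, adjusted p = 0.0944), oocyte library 2 (-0.31, adjusted p = 0.127) and oocyte library 3 (-0.31, adjusted p = 0.130). Nor did it pass with no filter (-0.19, adjusted p = 0.383). Over all alternatives its adjusted p ran from 9.09e-09 to 0.383, and the lowest was that of library totals, where inx-22 was higher in P-bodies.

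**Figure D2:**
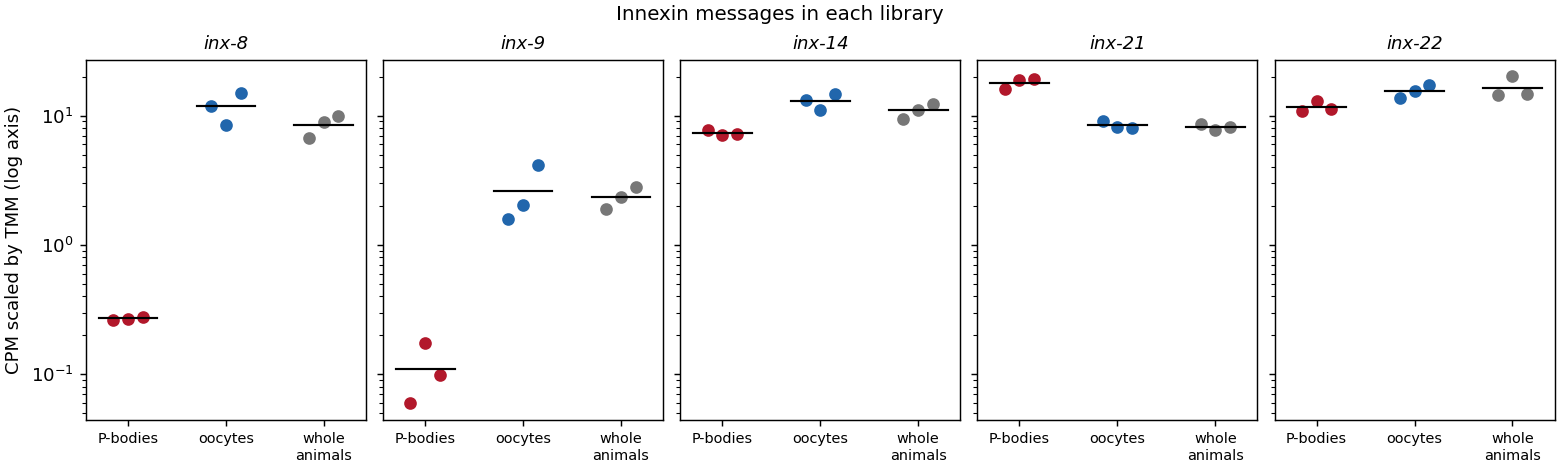
CPM scaled by TMM factors on a log axis for the 5 messages, with 1 point for each library and a line at the group mean (n = 3). The P-body points of inx-8 (0.2645 to 0.279 CPM) and inx-9 (0.0596 to 0.174 CPM) lie far below the other groups, and those of inx-21 (15.997 to 19.1 CPM) lie above them.

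Of the 5 messages, 1 was thus called higher and 4 lower in P-bodies than in oocytes, where 26.7% of all tested genes were called higher and 28.8% lower (55.5% in either direction). With library totals 3 were called higher and 2 lower, against 79.6% and 3.35% of all genes. On log2(TPM + 1), a scale of the other deposited table, inx-14 lay at 1.41 and inx-22 at 1.88, beside a median of 1.62 for all genes. On log2(TPM + 0.1) they lay at 1.47 and 1.95, both below the median of 2.16. The place of inx-22 relative to the typical gene therefore turned with the pseudocount.

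**Figure D3:**
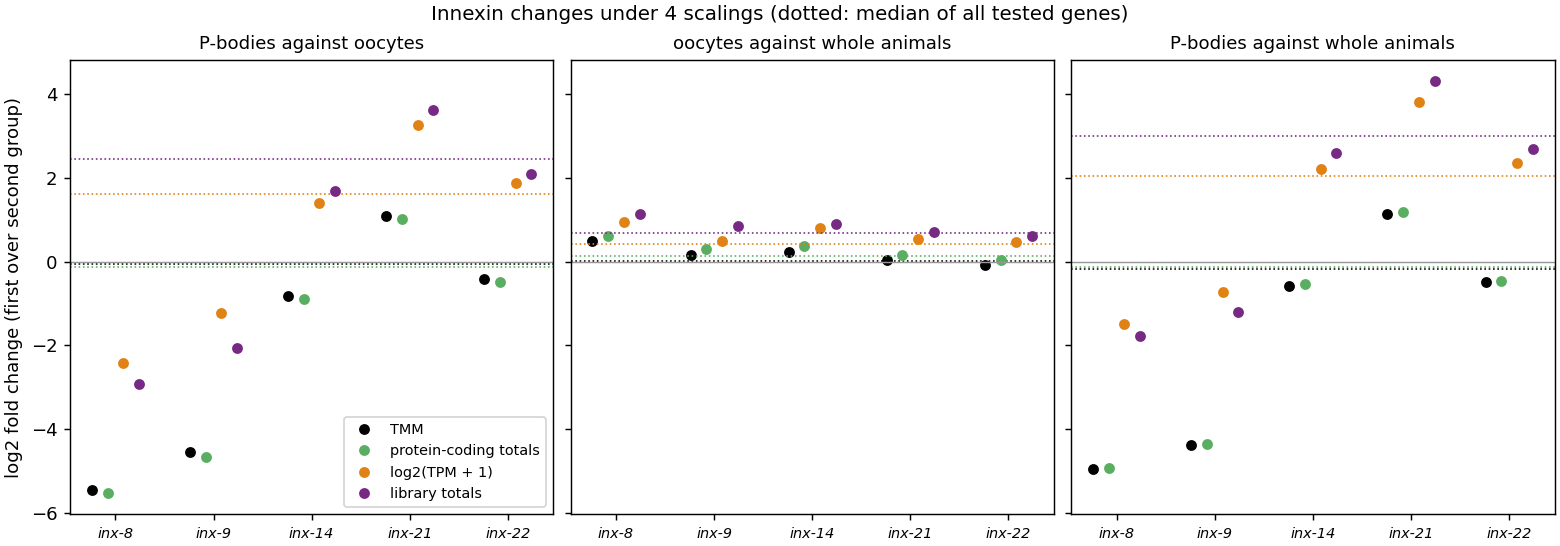
Log2 fold changes of the 5 messages in the 3 comparisons (y axis) with 4 scalings, and the median of all tested genes with each scaling as a dotted line. With P-bodies in the comparison, inx-8 and inx-9 lie below 0 and inx-21 above 0 with each of these scalings, while inx-14 and inx-22 change sign between TMM (-0.82 and -0.41 against oocytes) and library totals (1.69 and 2.096).

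A ratio of messages within a library does not depend on the scaling between libraries. Ratios were taken on counts per kilobase of exon and compared over libraries with two-sided exact permutation tests, in which 3 against 3 cannot give a p below 0.1. In all, 12 such comparisons were made. The sheath pair over the germline trio (inx-8 plus inx-9 over inx-14 plus inx-21 plus inx-22) stood at 0.0113, 0.0138 and 0.0122 in P-bodies and at 0.443, 0.361 and 0.573 in oocytes. The ratio was 36.5-fold lower in P-bodies, with a log2 difference of -5.19 (exact permutation p = 0.1, adjusted p = 0.2 over the 12). No P-body library came near the oocyte range.

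Within the germline trio the order of the partners turned. The ratio of inx-22 to inx-21 was 0.708, 0.711 and 0.612 in P-bodies, so inx-21 led in each library. In oocytes it was 1.58, 1.96 and 2.21, and inx-22 led in each library. The log2 difference was -1.49, or 2.81-fold (exact permutation p = 0.1, adjusted p = 0.2). With TPM in place of counts per kilobase it was -1.46.

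The shared subunit message inx-14 was lower relative to the sum of its partners in P-bodies, at 0.297, 0.231 and 0.244, than in oocytes, at 0.596, 0.473 and 0.590. The log2 difference of this ratio was -1.10 (exact permutation p = 0.1, adjusted p = 0.2), with no overlap between the groups. For the sheath genes the ratio of inx-8 to inx-9 was 4.26, 1.48 and 2.73 in P-bodies and 7.11, 3.98 and 3.46 in oocytes. Here the groups overlapped (log2 difference -0.84, exact permutation p = 0.3, adjusted p = 0.36), and inx-8 was the larger of the 2 in all 9 libraries.

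**Figure D4:**
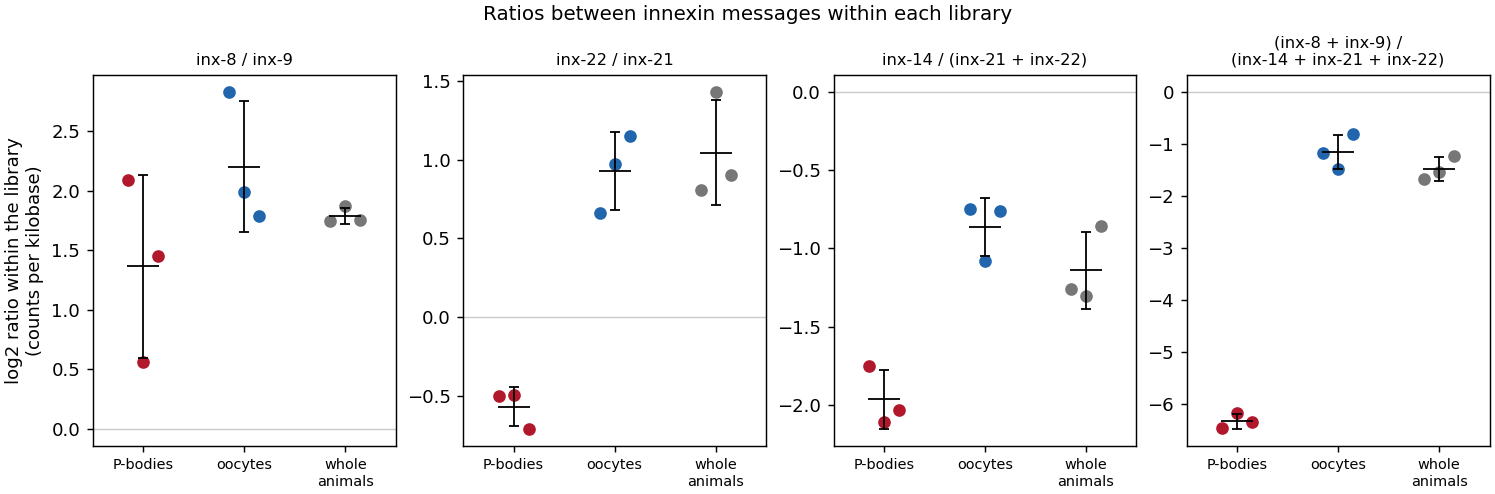
Log2 ratios between messages within each library, on counts per kilobase of exon, with 1 point for each library and the mean ± SD of 3 libraries. In P-bodies the mean log2 ratio of inx-22 to inx-21 is -0.57 against 0.93 in oocytes and 1.04 in whole animals, and that of the sheath pair to the germline trio is -6.34 against -1.15 and -1.48.

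The order of the 5 levels, given per length in the authors' TPM, differed between the groups. In P-bodies it was inx-21 (79.6 ± 10.6 TPM, SD, n = 3), inx-22 (51.1 ± 6.38), inx-14 (35.5 ± 0.731), inx-8 (1.502 ± 0.0579) and inx-9 (0.661 ± 0.296), with no overlap between neighbours in this order. In oocytes inx-22 (13.5 ± 3.84 TPM), inx-14 (12.9 ± 2.03) and inx-8 (12.7 ± 3.26) overlapped, followed by inx-21 (7.50 ± 1.54) and inx-9 (3.09 ± 1.65), each below its neighbour with no overlap. In whole animals the order was inx-22 (9.28 ± 1.51 TPM), inx-14 (6.87 ± 0.606), inx-8 (6.05 ± 0.858), inx-21 (4.76 ± 0.404) and inx-9 (1.74 ± 0.240), and only inx-14 and inx-8 overlapped.

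The sheath genes thus took a small part of the innexin TPM in P-bodies and a larger one elsewhere. Of the summed TPM of the 5 genes, inx-8 made up 0.896% ± 0.0769 for P-bodies, 25.7% ± 4.28 for oocytes and 21.04% ± 2.27 for whole animals (SD, n = 3). The share of inx-21 was 47.2% ± 2.39, 15.3% ± 2.60 and 16.7% ± 2.42. That of inx-22 was 30.3% ± 1.78, 26.9% ± 3.27 and 32.3% ± 4.36, so its range in P-bodies overlapped that of both other groups.

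Oocytes against whole animals asked what dissection of the oocytes left of the messages of the whole body. None of the 5 innexins was called in this comparison, in which 0.709% of all tested genes were called higher and 12.5% lower (13.2% in all). By edgeR's unadjusted p, 1 of them (inx-8) fell under 0.05, and DESeq2 called none. The sheath message inx-8 had 6.66, 8.89 and 9.84 CPM in whole animals, which overlapped the 8.46 to 15.02 CPM of oocytes. Its log2 fold change was 0.48 ± 0.21 (adjusted p = 0.167), and it passed without oocyte library 2 (0.68, adjusted p = 0.0380, range over the alternatives 0.00170 to 0.453). With library totals it was 1.14 ± 0.27 (adjusted p = 0.00170).

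The other messages lay closer to 0. In whole animals inx-9 had 1.90, 2.33 and 2.80 CPM, within the oocyte range, and a log2 fold change of 0.17 ± 0.44 (adjusted p = 0.860). The value turned to -0.37 without oocyte library 3, the library with the highest inx-9. For inx-14, at 9.42, 11.1 and 12.4 CPM in whole animals, it was 0.24 ± 0.15 (adjusted p = 0.338). For inx-21, at 8.62, 7.78 and 8.22 CPM, it was 0.04 ± 0.12 (adjusted p = 0.890), and for inx-22, at 14.5, 20.1 and 14.7 CPM, it was -0.08 ± 0.15 (adjusted p = 0.787). On library totals inx-9 lay at 0.85, inx-14 at 0.91, inx-21 at 0.71 and inx-22 at 0.60. All but inx-9 then passed, so that 4 of 5 were called higher, where 51.9% of all genes were called higher and 11.8% lower. None of the 4 ratios between members separated these groups (exact permutation p = 0.2 to 0.7).

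P-bodies against whole animals uses the P-body libraries again and is no independent repeat. The message inx-8 lay at -4.97 ± 0.22 (adjusted p = 1.09e-08) and inx-9 at -4.39 ± 0.45 (adjusted p = 6.50e-06). Values were -0.58 ± 0.14 for inx-14 (adjusted p = 0.00289), 1.13 ± 0.12 for inx-21 (adjusted p = 3.97e-06) and -0.49 ± 0.14 for inx-22 (adjusted p = 0.00908). With library totals they were -1.78, -1.21, 2.60, 4.32 and 2.70 in the order inx-8, inx-9, inx-14, inx-21, inx-22. Again 1 of 5 was called higher and 4 lower, where 27.9% of all genes were called higher and 38.9% lower (66.8% in all). With library totals 3 were higher and 2 lower, against 76.6% and 9.73% of all genes. Within libraries, the ratio of inx-22 to inx-21 was 3.05-fold lower in P-bodies than the 1.75, 2.69 and 1.87 of whole animals, and the ratio of the sheath pair to the germline trio was 29.0-fold lower (exact permutation p = 0.1 and adjusted p = 0.2 for each). With no filter the calls of inx-14 (-0.33, adjusted p = 0.0983, range 2.06e-10 to 0.0983) and inx-22 (-0.24, adjusted p = 0.180, range 2.88e-10 to 0.180) were lost. In both ranges the lowest adjusted p was that of library totals, where the gene was higher in P-bodies. The call of inx-22 was also lost without whole-animal library 2 (-0.30, adjusted p = 0.0787).

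On the TMM scale the called markers of the gonadal sheath and spermatheca were lower in P-bodies, as inx-8 and inx-9 were, and so were those of muscle and intestine. Of the 11 marker genes 9 were tested, and 5 were called lower in P-bodies than in oocytes and 0 higher, with a median log2 fold change of -1.34, where 28.8% of all genes were called lower. With library totals 4 were called higher and 1 lower, beside 79.6% and 3.35% of all genes. The median was then 1.17, below the 2.44 of all genes. DESeq2 called 8 lower and 0 higher, as did edgeR's unadjusted p under 0.05. Of 10 muscle markers 9 were lower in P-bodies than in oocytes (median -2.51, or 0.04 with library totals, which called 2 higher and 2 lower). Of 9 intestine markers 4 were lower (median -1.44, or 1.12 with library totals, which called 3 higher and 0 lower). edgeR and DESeq2 called 0 of either list higher there, and the part of muscle or intestine RNA in the values of inx-8 and inx-9 was not tested. In P-bodies against oocytes the medians of the sheath, muscle and intestine lists lay below that of all genes with both scalings. Against whole animals 8 sheath markers were lower in P-bodies (38.9% of all genes). With library totals 1 was lower and 3 were higher (9.73% and 76.6% of all genes), with a median of 0.47 against 3.00 for all genes. Between oocytes and whole animals 1 sheath marker was lower in oocytes and 0 were higher, by edgeR and by DESeq2. There edgeR called 12.5% of all genes lower and 0.709% higher. Their summed level ran from 121 to 126 CPM over the P-body libraries, from 244 to 296 over the oocytes and from 267 to 294 over whole animals, most of it from fln-1, which encodes filamin of contractile spermathecal cells. Of the defining markers, sth-1 had 0 counts in each P-body library and 1 to 2 in oocytes, and fkh-6 had at most 4 counts in any library.

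Other sheath transcription factor genes were scarce. The message of lim-7, a LIM homeobox gene of the sheath named here after its values were seen, had 31 to 39 counts in P-bodies, and oocytes had 2 to 34 and whole animals 8 to 21. Its log2 fold change between P-bodies and oocytes was -2.04 ± 0.68 (adjusted p = 0.0245). ceh-18, a POU homeobox gene that acts in the sheath to restrain oocyte maturation, had 0.173 to 0.513 CPM in oocytes and lay at -2.17 ± 0.76 (adjusted p = 0.0291). The troponin T gene mup-2 lay at -4.20 ± 0.30 (adjusted p = 1.88e-06). With library totals these were 0.39, 0.31 and -1.68, so of the 3 only mup-2 kept its direction as inx-8 and inx-9 did. It was also the only 1 of the 9 tested sheath and spermatheca markers called lower with library totals. Of the 10 muscle markers 2 were called lower there too. The part of sheath RNA in the oocyte values of inx-8 and inx-9 was not tested, and in these bulk samples fewer sheath cells and less message per cell cannot be told apart.

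Markers of muscle, intestine and neurons were mostly lower in oocytes than in whole animals. Of 10 muscle markers 8 were called lower in oocytes than in whole animals, with summed levels of 102 to 298 against 618 to 846 CPM and the highest oocyte value in library 1. Of 9 intestine markers 8 were lower (483 to 1564 against 8963 to 11497 CPM), and of the 8 tested neuron markers 6 were lower. Of all tested genes 12.5% were called lower in that comparison and 0.709% higher. No such marker was called higher there by edgeR, by its unadjusted p or by DESeq2. Of 5 tested hypodermis and cuticle markers edgeR called 0, with 3 lower at an unadjusted p under 0.05 and 2 lower by DESeq2. The sperm genes summed to at most 2.48 CPM in any library. edgeR called 0 of the 14 oocyte markers between oocytes and whole animals, but 7 were higher at an unadjusted p under 0.05 and 7 by DESeq2. With library totals all 14 were called higher, beside 51.9% of all genes. In P-bodies against oocytes 6 were higher and 6 lower, beside 26.7% and 28.8% of all genes. With library totals 12 were higher and 2 lower, beside 79.6% and 3.35% of all genes. The 2 oocyte markers lower with library totals were perm-2 and perm-4, which encode proteins of the eggshell's permeability barrier. They are named here after their values were seen, and had fold changes near the -4.56 of inx-9. The other 12 oocyte markers ran from -0.80 (rme-2) to 1.85 (spn-4) on the TMM scale, and all 12 were higher with library totals. The P-body level of perm-2 was 2.60 ± 0.716 CPM and its oocyte level 58.2 ± 20.1, which put it at -4.49 ± 0.28 (adjusted p = 3.53e-06), or -1.98 by library totals. perm-4 lay at -4.44 ± 0.27 (adjusted p = 3.07e-06), or -1.94 by library totals.

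**Figure D5:**
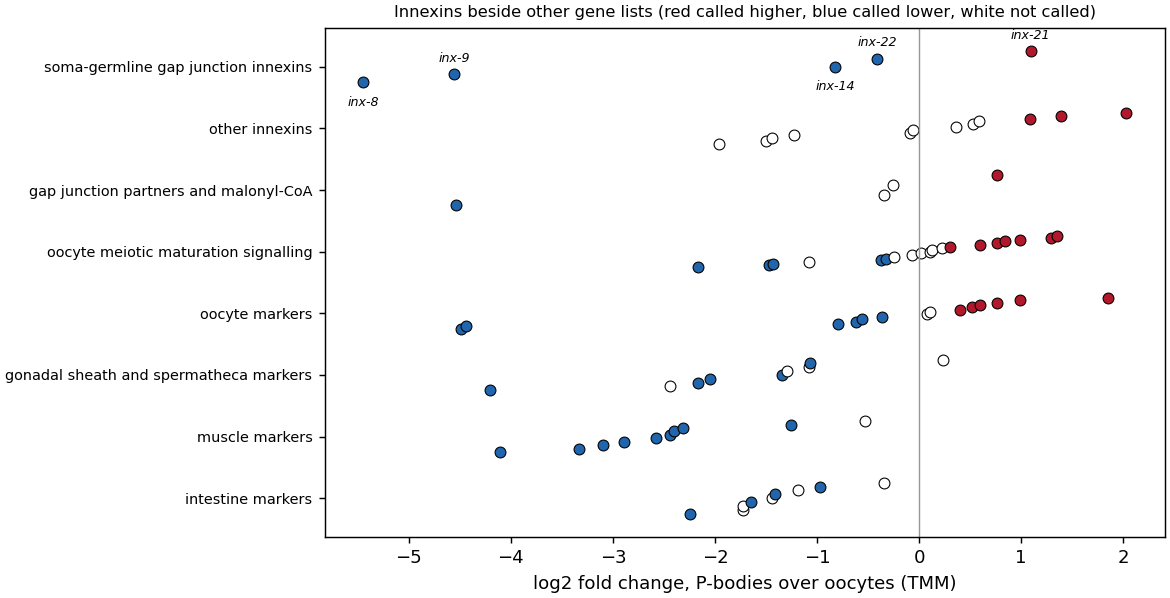
Log2 fold change of P-bodies over oocytes (x axis, TMM scale) for each tested gene of 8 lists, red where called higher, blue where called lower and white where not called. inx-8 (-5.45) and inx-9 (-4.56) lie at the far left, inx-21 (1.09) is the only red point of its list, and inx-20, at 0 counts in oocytes, is not drawn.

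Of the other 20 innexin genes 13 were tested. In P-bodies against oocytes 4 were called higher and 0 lower, beside 26.7% and 28.8% of all genes. The median log2 fold change was 0.37, against -0.06 for all genes. With library totals 9 were higher and 0 lower, beside 79.6% and 3.35% of all genes, with a median of 2.87 against 2.44. DESeq2 also called 4 higher and called 1 lower, as 1 was at an unadjusted edgeR p under 0.05. The highest level was that of inx-3, an innexin of embryos and epithelia, which stood at 55.6, 58.5 and 64.3 CPM in P-bodies and 13.9, 14.04 and 15.6 in oocytes (2.03 ± 0.11, adjusted p = 2.08e-08, 4.54 with library totals). inx-7 rose by 1.39 ± 0.16 (adjusted p = 8.91e-06, 3.90 with library totals) and inx-10 by 1.09 ± 0.30 (adjusted p = 0.00776, 3.59 with library totals). inx-20 had 23 to 28 counts in P-bodies and 0 in oocytes, at least 2.97-fold higher against a floor of 3 counts over the oocyte group. With that bound in place of its fitted value the median of the list was the same, 0.37.

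inx-2 lay at 0.37 ± 0.16 (adjusted p = 0.0706, 2.87 with library totals) between P-bodies and oocytes, and it was the only other innexin called higher in oocytes than in whole animals (0.80 ± 0.17, adjusted p = 0.00840, 1.47 with library totals). In that comparison inx-15 and inx-16, innexins of the intestine, were called lower in oocytes (-4.71 ± 1.10 and -3.23 ± 0.81, adjusted p = 0.00820 and 0.0202, or -3.99 and -2.59 with library totals). The difference between inx-8 or inx-9 and that list was not tested. Against whole animals 4 of the 13 were higher in P-bodies and 4 lower, beside 27.9% and 38.9% of all genes. With library totals 9 were higher and 2 lower, beside 76.6% and 9.73% of all genes.

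Of 19 genes of oocyte meiotic maturation signalling, the process that channels with INX-22 hold back, 7 were called higher and 5 lower in P-bodies than in oocytes (median 0.11), beside 26.7% and 28.8% of all genes. With library totals 18 were higher and 0 lower (median 2.62), beside 79.6% and 3.35% of all genes (median 2.44). The protein kinase A genes went opposite ways. kin-2, the regulatory subunit, rose by 1.35 ± 0.12 from 5.50 ± 0.485 to 13.95 ± 0.311 CPM (adjusted p = 1.10e-06), and kin-1, the catalytic subunit, lay at -1.47 ± 0.46 (adjusted p = 0.0166), from 1.12 ± 0.783 to 0.407 ± 0.0603 CPM. With library totals these were 3.86 and 1.09, so the sign of kin-1 turned.

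gsa-1, the stimulatory G alpha subunit that acts in the sheath, had 0.257 to 0.695 CPM in P-bodies, and oocytes had 0.632 to 1.56 and whole animals 3.17 to 4.09. Between P-bodies and oocytes it lay at -1.43 ± 0.44 (adjusted p = 0.0162, 1.09 with library totals), so its sign turned. acy-4, the adenylate cyclase of the sheath, had 0.344 to 0.442 CPM in P-bodies and 0.348 to 1.11 in oocytes, at -1.08 ± 0.47 (adjusted p = 0.0715), and at 1.45 on library totals (adjusted p = 0.0111). On the oocyte side vab-1, an Eph receptor that binds the sperm signal, rose by 0.30 ± 0.10 (adjusted p = 0.0213, 2.81 with library totals), and cyb-3, a B-type cyclin, rose by 1.29 ± 0.09 (adjusted p = 2.22e-07, 3.803 with library totals). Between oocytes and whole animals 3 of the 19 were lower in oocytes, namely kin-1, gsa-1 and kin-2, and 0 higher, with 2 higher at an unadjusted edgeR p under 0.05 and 3 by DESeq2. Of all genes 12.5% were called lower there and 0.709% higher. With library totals 13 were higher and 0 lower, beside 51.9% and 11.8% of all genes. Against whole animals 9 were higher in P-bodies and 5 lower, beside 27.9% and 38.9% of all genes. With library totals 16 were higher and 0 lower (median 3.19), beside 76.6% and 9.73% of all genes (median 3.00).

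Of 6 genes for gap junction partners and malonyl-CoA, the cargo reported for these channels, 4 were tested. fasn-1, fatty acid synthase, which uses malonyl-CoA, stood at 2.44, 2.37 and 1.77 CPM in P-bodies and 50.6, 59.6 and 42.8 in oocytes. It lay at -4.54 ± 0.14 (adjusted p = 4.10e-09), and at -2.03 on library totals. pod-2, the acetyl-CoA carboxylase that makes malonyl-CoA, lay at -0.26 ± 0.11 (adjusted p = 0.0704, but 2.25 on library totals, adjusted p = 4.22e-10) and was lower in oocytes than in whole animals (-0.55 ± 0.11, adjusted p = 0.00651, but 0.13 with library totals). zoo-1, a ZO-1 homolog of cell junctions, rose by 0.76 ± 0.13 in P-bodies (adjusted p = 0.000216), or by 3.27 on library totals.

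Likeness of pattern was measured as the distance between log2(CPM + 0.5) over the 9 libraries, each gene centred on its own mean. Candidates were 3092 protein-coding genes that carry a class symbol and average 5 CPM or more. In P-bodies inx-8 (mean 0.27 CPM) and inx-9 (mean 0.11 CPM) lay below the added 0.5. Their fall is therefore compressed on this scale, and their distances and nearest genes depend on it. Closest to inx-8 were rpl-11.1, a ribosomal protein gene (distance 1.05), tbh-1, the tyramine beta-hydroxylase gene (1.06), and nduo-6, a mitochondrially encoded NADH dehydrogenase subunit (1.07). The mean level of tbh-1 was 0.817 CPM for P-bodies, 31.7 for oocytes and 23.4 for whole animals. Closest to inx-9 were cps-6, an endonuclease G homolog (0.793), rpl-30 (0.863) and uggt-1 (0.876). These genes lay farther from the sheath innexins than the nearest genes did from the germline innexins.

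Closest to inx-21 were dpy-23, the mu subunit of the clathrin adaptor AP2 (distance 0.134), pdp-1, a pyruvate dehydrogenase phosphatase gene (0.178), and daz-1, a germline RNA-binding protein gene (0.203). Closest to inx-14 were npp-23, a nuclear pore gene (0.213), csn-4, of the COP9 signalosome (0.226), and rpa-1, of replication protein A (0.332). Closest to inx-22 were ets-6 (0.333), spr-1 (0.362) and nucb-1 (0.369). Among the members inx-14 and inx-22 were the most alike (0.757) and inx-8 and inx-21 the least (6.86).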

How the data were processed

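The authors deposited raw counts per gene for 9 libraries, credited to HTSeq in the table's name, and a StringTie table with TPM, FPKM and mean coverage per base, per the file headers. FPKM values and the deposited coverage signal entered no test. Reads were aligned with HISAT2 2.1.0 to WBcel235, per the submitters' processing notes. Per the labels' protocols, RNA was taken with a kit for fixed tissue, libraries were stranded, and only sorted P-bodies skipped the removal of debris. Symbols came from the deposited table, exons from Ensembl release 115 (46603 of 46778 identifiers matched).

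Counts were tested with edgeR 4.0.16 (R 4.3.3) by the quasi-likelihood test with robust estimation, TMM factors and no covariates, over all 9 libraries. The default filter by group asked for at least 10 counts and a total of 15. Benjamini-Hochberg adjusted p under 0.05 over 10162 genes was called, and an adjusted p in the text is from this test unless another is named. SE come from the fitted weights. Alternatives used limma 3.58.1 and DESeq2 1.42.0. The fit was tested on simulated data. Ratios used counts per kilobase of merged exons.

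The members, the 11 gene lists and the rule for named genes were chosen with earlier results of these data known. The rule named all 5 members, tested innexins, the 3 largest called changes and preset genes of 2 pathway lists, high markers and the 3 genes most alike to each member. Intervals and SE do not cover biological sources that the labels leave unnamed. No replicate pair was alike within counting noise. No label says what a replicate number marks. Deviations from the group means correlated in all 3 same-numbered pairs of oocytes and P-bodies (r = 0.10, 0.14 and 0.23). Of the pairs with unlike numbers, oocyte library 1 with P-body library 2 (0.10) and oocyte library 3 with P-body library 1 (0.23) came as high. The other unlike pairs of these groups ran from -0.34 to 0.085. The data alone thus do not settle whether the numbers pair those libraries, and the fit with the number as a block is an alternative.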

Additional observations from a re-analysis of the deposited data

How the results depend on the processing

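In all 18 alternatives inx-8 and inx-9 stayed lower in P-bodies than in oocytes (-5.54 to -2.42 and -5.24 to -1.23). The -5.24 is that of inx-8 and inx-9 counts added into 1 feature. The lowest value of inx-9 alone was -5.03, without P-body library 2. In the same alternatives inx-21 stayed higher (1.02 to 3.61). Each gene stayed past the threshold, and the same held against whole animals (-5.09 to -1.49, -4.86 to -0.74 and 1.03 to 4.32 for inx-8, inx-9 and inx-21). The sign of inx-14 and inx-22 depended on the scaling. With library totals, log2(TPM + 1) and log2(TPM + 0.1), P-bodies against oocytes gave 1.69, 1.41 and 1.47 for inx-14 and 2.096, 1.88 and 1.95 for inx-22. Against whole animals they gave 2.60, 2.22 and 2.36, and 2.70, 2.35 and 2.45. With no filter inx-22 lay at -0.19 against oocytes and -0.24 against whole animals, and inx-14 at -0.33 against whole animals. The cause was not tested.

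For oocytes against whole animals the same 3 scalings gave 1.14, 0.94 and 1.03 for inx-8, 0.91, 0.81 and 0.88 for inx-14, 0.71, 0.55 and 0.63 for inx-21, and 0.60, 0.47 and 0.50 for inx-22. The value of inx-22 was 0.0376 with protein-coding totals, and that of inx-21 was -0.0133 with the stricter filter (at least 10 counts in each library).

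Leaving out 1 library gave, for oocytes against whole animals, 0.26 to 0.68 for inx-8, -0.37 to 0.43 for inx-9, -0.00683 to 0.0755 for inx-21 and -0.17 to 0.0872 for inx-22. It gave -0.48 to -0.31 for inx-22 in P-bodies against oocytes and -0.56 to -0.30 against whole animals. Of 135 such values 125 kept direction and side of the threshold. The log2 difference of inx-22 to inx-21 between oocytes and whole animals ran from -0.24 to 0.0720.

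Counts of all called genes moved too. Library totals, log2(TPM + 1) and log2(TPM + 0.1) gave 8093, 7987 and 7969 higher and 340, 270 and 286 lower in P-bodies against oocytes (2715 and 2925 with TMM). Against whole animals they gave 7781, 7743 and 7611 higher and 989, 1322 and 1156 lower (2840 and 3950 with TMM), with 2467 lower under the stricter filter. For oocytes against whole animals 72 genes were higher, but 5278 with library totals, 642 with protein-coding totals, 363 with DESeq2, 320 with no filter, 16 with the stricter filter, 4202 and 4315 on the TPM scales, and 23 to 227 with 1 library left out. The 1272 lower became 392 under the stricter filter, which tests fewer genes.

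The replicate block changed no call of the 5 genes in any comparison (inx-22 at -0.41 in P-bodies against oocytes) and gave 2654 higher and 2700 lower genes there. Same-numbered libraries did not all deviate together in the comparisons with whole animals (5 of all 9 same-numbered pairs had r over 0.1, with a lowest of -0.20), and 2 of 9 libraries correlated best with their own number. In P-bodies 16 to 52 counts limit the precision of inx-9.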
